A study of Mus musculus with 2 samples.

Results

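Among the cells of the mouse aortic arch, a small group of barcodes held the genes of 2 cell types at once: the endothelial adhesion genes Pecam1 and Cdh5, and the macrophage complement genes C1qa, C1qb and C1qc. A barcode marks the RNA of 1 droplet, and a UMI is 1 counted RNA molecule. A barcode was called mixed when it had at least 1 UMI of Pecam1, at least 1 UMI of Cdh5, and C1qa, C1qb and C1qc together at 0.2% or more of its UMIs. The members were thus chosen by the measured UMIs of these 5 genes, and genes that go with them in either cell type came along, so all levels below are descriptions without a test. Of 8155 kept barcodes, 89 were mixed, 30 of 5416 in the ND library and 59 of 2739 in the HFD library.

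The ND group received a normal diet and the HFD group a high fat diet. All animals of both groups were male Apoe-/- mice of strain C57BL/6 at 16 weeks of age, so the controls also lacked Apoe, whose loss raises plasma cholesterol, and ND is not a wild-type control. Each library pooled the aortas of 2 mice after enzymatic digestion of the arch, and there was 1 library per diet, so differences between the diets carry no test and both values are given. The intervals in parentheses are exact at 95% and cover counting error only, not the spread between mice or between barcodes. Levels are CPM, the UMIs of a gene in counts per 1000000 UMIs of the named barcodes, which are not divided by gene length and are compared for the same gene or list only.

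Endothelial cells line the vessel wall, and Pecam1 and Cdh5 encode proteins of the junctions between them, through which leukocytes also pass. C1qa, C1qb and C1qc encode the 3 chains of C1q, the first protein of the classical complement pathway, which tissue macrophages make in quantity. In atherosclerosis, macrophages gather under the endothelium of the arterial intima, take up lipid and turn into foam cells. The study took cells with both Pecam1 and Cdh5 as endothelial, and among them it described an inflammatory subpopulation by Cxcl2, a neutrophil-attracting chemokine, and Tyrobp, a signalling adaptor of myeloid receptors. Which genes of both cell types are found together in 1 barcode is therefore of interest for these cells. The study's own selection held fewer cells of each group than the 2405 ND and 1447 HFD barcodes with both genes here. Which mixed barcodes were among its endothelial cells is thus not known.

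The mixed barcodes made up 0.554% (0.374 to 0.790) of the kept ND barcodes and 2.15% (1.64 to 2.77) of the kept HFD barcodes. Of the barcodes with both Pecam1 and Cdh5, they were 1.25% (0.843 to 1.78) of 2405 in ND and 4.08% (3.12 to 5.23) of 1447 in HFD. Of the barcodes at or above the C1q limit, they were 7.61% (5.20 to 10.7) of 394 in ND and 11.1% (8.57 to 14.1) of 531 in HFD. The libraries differed in depth, with a median of 3732.5 UMIs per kept barcode in ND and 5336 in HFD. After each barcode was thinned at random to 1000 UMIs before the rule, the share of mixed barcodes was 0.262% in ND and 0.475% in HFD.

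The barcodes were set beside 2 references from the same library. The endothelial reference held the barcodes with Pecam1 and Cdh5 below the C1q limit, 2375 in ND and 1388 in HFD. The macrophage reference held the barcodes at or above the C1q limit without both Pecam1 and Cdh5, 364 in ND and 472 in HFD. No C1q UMI at all was found in 93.1% of the ND and 80.9% of the HFD barcodes with Pecam1 and Cdh5. Just inside the limit, the lowest C1q share was 0.239% in ND and 0.206% in HFD, and just outside it the highest was 0.193% and 0.175%.

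A UMI of Pecam1 and of Cdh5 was also found in barcodes that were rich in the genes of other cell types. In ND, 8.66% (7.11 to 10.4) of 1166 fibroblast-gene-rich barcodes had both, at a median of 3942 UMIs, beside the 7.61% of C1q-rich barcodes at a median of 4515.5 UMIs. In HFD, the share was 13.9% (11.1 to 17.1) of 533 fibroblast-gene-rich barcodes at 4630 UMIs, beside 11.1% of the C1q-rich ones at 6289 UMIs. In ND, it was 4.39% (2.77 to 6.57) of B-cell-gene-rich and 2.05% (0.562 to 5.17) of T-cell-gene-rich barcodes at medians of 3447 and 2549 UMIs. In HFD, it was 2 of 9 B-cell-gene-rich barcodes (22.2%, 2.81 to 60.0) and 9 of 31 T-cell-gene-rich barcodes (29.0%, 14.2 to 48.0) at 3972 and 5470 UMIs, above the C1q-rich share. The share of C1q-rich barcodes with both genes was no higher than in fibroblast-gene-rich barcodes, also after thinning to 1000 UMIs (1.28% against 2.84% in ND and 1.69% against 3.19% in HFD). It lay above both lymphocyte shares in ND and below both in HFD, so the share by itself was not read as expression of Pecam1 and Cdh5. The gates for the other cell types were set after the data had been seen.

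The genes that chose the barcodes were spread widely among them. Pecam1 (ENSMUSG00000020717, chromosome 11, 106654217 to 106750628 on the minus strand in GENCODE M21 on GRCm38) had a lowest, median and highest count of 1, 4 and 68 UMIs per ND barcode and of 1, 5 and 55 per HFD barcode. Cdh5 (ENSMUSG00000031871, chromosome 8, 104101625 to 104144511 on the plus strand) had 1, 3 and 27 UMIs in ND and 1, 4 and 25 in HFD. C1qa, C1qb and C1qc, which lie side by side on chromosome 4, had together 9, 43 and 138 UMIs in ND and 14, 60 and 264 in HFD. Both genes of the endothelial side stood at their minimum of 1 UMI in 5 of 30 ND and 7 of 59 HFD barcodes. The C1q share had a median of 0.583% in ND and 0.719% in HFD mixed barcodes, against 1.23% and 1.10% in the macrophage reference.

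The label was checked with 20 further endothelial genes, among them Tm4sf1, Cldn5, Ptprb and Flt1, and 20 further macrophage genes, among them Lyz2, Ctss, Fcer1g and Tyrobp. No gene of the rule is on either list. The endothelial list had a lowest, median and highest count of 0, 50 and 175 UMIs per ND mixed barcode and of 1, 43 and 236 per HFD mixed barcode. In the references its median was 58 in ND and 70 in HFD endothelial barcodes, and 1 and 2 in macrophage barcodes. The macrophage list had 4, 89 and 334 UMIs per ND and 19, 106 and 871 per HFD mixed barcode, against medians of 86 and 113 in the macrophage reference and of 1 and 1 in the endothelial reference. The typical mixed barcode therefore held about as many UMIs of the macrophage list as a macrophage barcode, and somewhat fewer of the endothelial list than an endothelial one.

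At least 10 UMIs of both lists were found in 22 of 30 ND and 53 of 59 HFD mixed barcodes. The same was true of 5.43% of the ND and 6.34% of the HFD endothelial reference, and of 2.20% and 4.45% of the macrophage reference. The label went unmet in a minority: 6 ND and 6 HFD mixed barcodes had fewer than 10 UMIs of the endothelial list, and of these 5 and 4 had only 1 UMI each of Pecam1 and Cdh5. Fewer than 10 UMIs of the macrophage list were found in 2 ND barcodes and in 0 of the 59 HFD barcodes.

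**Figure D1:**
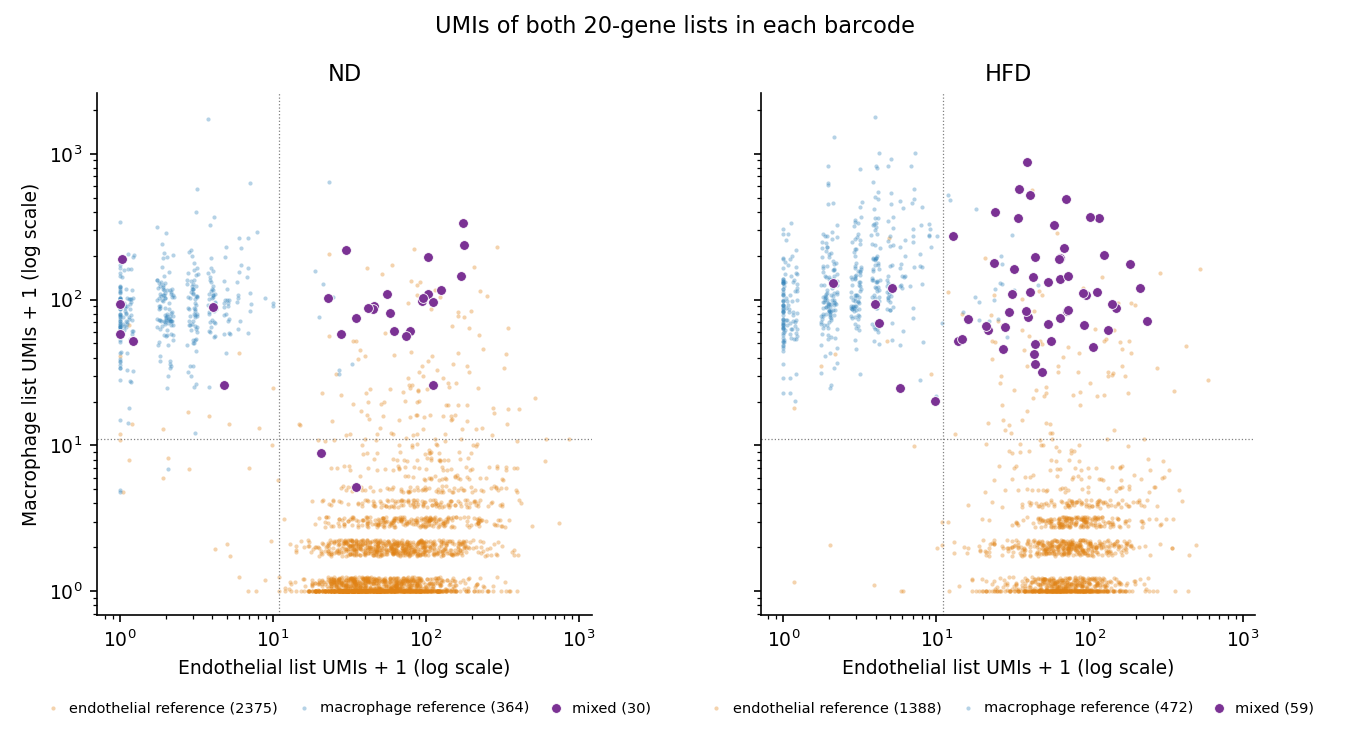
UMIs of the 20-gene macrophage list (vertical, plus 1, log scale) against the 20-gene endothelial list (horizontal, plus 1, log scale) for each barcode of the ND library (left) and the HFD library (right), with points shifted by up to 0.25 UMIs to separate them and dotted lines at 10 UMIs. Mixed barcodes (purple) mostly lie where both lists are high, 22 of 30 in ND and 53 of 59 in HFD at 10 UMIs or more of both, with 6 in each library at fewer than 10 UMIs of the endothelial list.

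At the median, mixed barcodes held more UMIs than either reference. The median was 7828 (6013 to 9981) UMIs in ND and 8630 (7790 to 10782) in HFD, with ranges of 1373 to 27943 and 1603 to 23626. The endothelial reference had medians of 4240 and 5514 UMIs, and the macrophage reference 4472 and 5942.5. The 2 reference medians add up to 8712 UMIs in ND, inside the interval of the mixed median, and to 11456.5 in HFD, above its interval. The rule itself favours deep barcodes, in which a UMI of Pecam1 and of Cdh5 is more readily found. After thinning to 1000 UMIs, 1.28% of ND and 1.69% of HFD C1q-rich barcodes had both genes, instead of 7.61% and 11.1%. What this choice adds to the depth of mixed barcodes was not tested. A median of 2601 genes was detected per ND and 2745 per HFD mixed barcode. After thinning to 1000 UMIs, the median was 613 genes in ND mixed barcodes against 600 in the endothelial and 549 in the macrophage reference, and 582 against 569.5 and 518 in HFD.

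**Figure D2:**
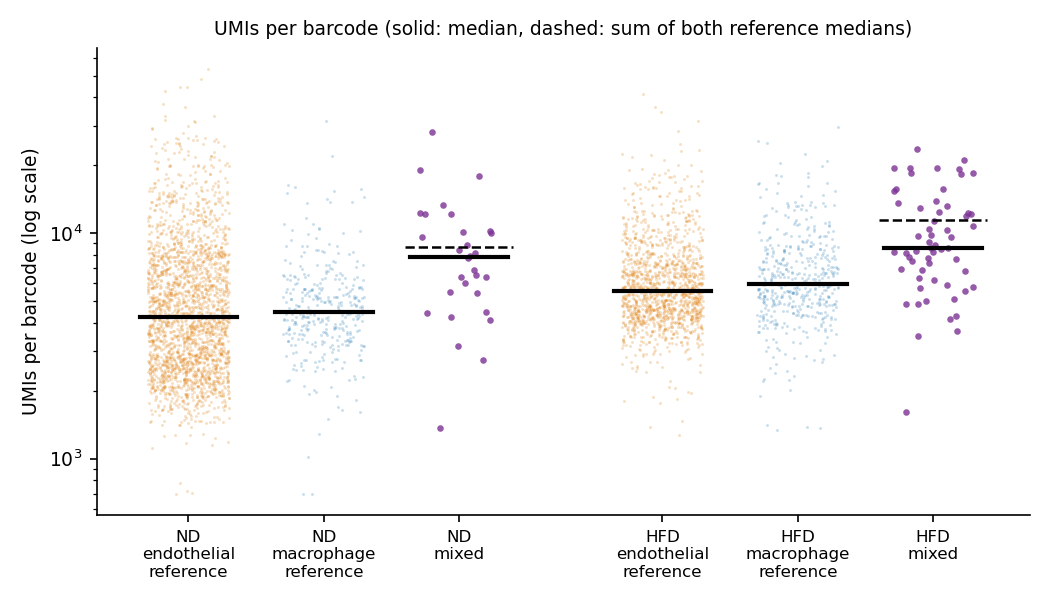
UMIs per barcode (log scale) in the endothelial reference (orange), the macrophage reference (blue) and the mixed barcodes (purple) of each library, 1 point per barcode. Solid lines are medians, at 7828 UMIs in ND and 8630 in HFD mixed barcodes, and the dashed lines, at 8712 and 11456.5, are the sums of both reference medians.

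The mitochondrial share had a median of 11.9% in ND and 15.4% in HFD mixed barcodes, against 15.9% and 21.9% in the endothelial reference. Among barcodes between the quartiles of the mixed barcodes' UMIs, the medians were 11.3% in ND mixed, 10.9% in ND endothelial and 12.5% in ND macrophage barcodes, and 15.4%, 16.0% and 16.7% in HFD. A doublet score, which compares each barcode with simulated sums of 2 barcodes of its library, was in the highest 6% of the library for 16 of 30 ND mixed barcodes (53.3%, 34.3 to 71.7) and 30 of 59 HFD mixed barcodes (50.8%, 37.5 to 64.1). It was that high in 8.25% of the ND and 6.92% of the HFD endothelial reference, and in 6.32% and 5.72% of the macrophage reference. The caller's own threshold marked 0 ND barcodes and 1 HFD barcode, so its calls were not used and no barcode was removed. The part of barcodes with 2 cells in these results was not tested.

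How much of each source a mixed barcode held was measured from both lists. The summed endothelial list stood at 7134 CPM in ND mixed barcodes, which is 53.4% (51.0 to 55.9) of its level in the ND endothelial reference. The macrophage list stood at 11548 CPM, or 56.5% (54.5 to 58.5) of its level in the macrophage reference. In HFD mixed barcodes these values were 45.2% (43.7 to 46.7) and 64.1% (62.8 to 65.5). The 2 percentages add up to 109.9% in ND and 109.3% in HFD. The macrophage part of both was 51.4% in ND and 58.7% in HFD.

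Single barcodes covered the whole range. The macrophage part had a lowest, median and highest value of 7.14%, 55.5% and 100% in ND and of 13.9%, 59.9% and 98.6% in HFD. It lay between 25% and 75% in 20 of 30 ND and 41 of 59 HFD mixed barcodes. It was 90% or more in 5 ND and 7 HFD barcodes. In the ND endothelial reference it was under 10% in 2250 of 2375 barcodes, and in the ND macrophage reference it was 90% or more in 346 of 364.

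Macrophage genes in the mixed barcodes were set against a mix of both references. The mix is the sum of the 2 reference profiles of a library, weighted by the percentages above after scaling them to add up to 1. Lyz2 and Tyrobp are on the list that sets the weights, and Lyz2 was 1086 of its 3043 UMIs in ND and 3297 of 9299 in HFD, so their closeness to the mix is in part built in. Lyz2, the lysozyme of macrophages, was at 4121 (3879.6 to 4374) CPM in ND mixed barcodes against 4091 in the mix, and at 5436 (5252 to 5625) against 5451 in HFD. Tyrobp was at 789 (686 to 904) CPM in ND against 801, and at 1530.2 (1433 to 1632) in HFD against 1299.9. Tyrobp UMIs were found in 26 of 30 ND and 56 of 59 HFD mixed barcodes, and its level in the endothelial reference was 41.3 CPM in ND and 76.1 CPM in HFD.

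Cxcl2 was at 2816 (2617 to 3026) CPM in ND mixed barcodes, against 137 in the endothelial reference, 4402 in the macrophage reference and 2329 in the mix. In HFD it was at 2127 (2012.5 to 2246) CPM, against 132, 3044 and 1841. It was found in 25 of 30 ND and 44 of 59 HFD mixed barcodes. Both genes that mark the study's inflammatory endothelial cells were thus many times higher in mixed barcodes than in the endothelial reference, and their log2 ratios to the mix were 0.27 in ND and 0.21 in HFD for Cxcl2 and -0.021 and 0.24 for Tyrobp. The whole inflammatory macrophage list, with Ccl4, Cxcl1 and the cytokine gene Tnf, was at 0.50 and 0.32. The monocyte list, led by Ccr2 and Ace, was also above the mix, at 0.93 and 0.31. As whole lists, the resident and foam macrophage lists lay below it. The resident macrophage list, with Pf4 and F13a1, was at -0.50 in ND and -0.085 in HFD, and the foam macrophage list, with Ctsd and Lgals3, at -0.19 and -0.091. The median over the single foam genes was -0.15 in ND and 0.057 in HFD.

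Of the endothelial genes, Cldn5, a tight junction gene, was at 797 (693 to 912) CPM in ND mixed barcodes against 1159 in the mix, and at 663 (599.6 to 731) against 1024 in HFD. Tm4sf1, a membrane protein gene of endothelial cells, went the other way, at 1768 (1611 to 1936) against 888 in ND and 991 (913 to 1073) against 624 in HFD. Both genes are on the endothelial list that sets the weights, and Tm4sf1 was 466 of its 1880 UMIs in ND and 601 of 3524 in HFD. Their opposite departures from the mix are thus not independent. Pecam1 was at 1123 (999 to 1259) CPM against 611 in ND and 831 (760.1 to 907) against 514 in HFD. Cdh5 was at 645 (552 to 749.7) against 735 and at 549 (492 to 611) against 608, but both genes chose the barcodes, and their levels are not comparable with those of other genes.

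**Figure D3:**
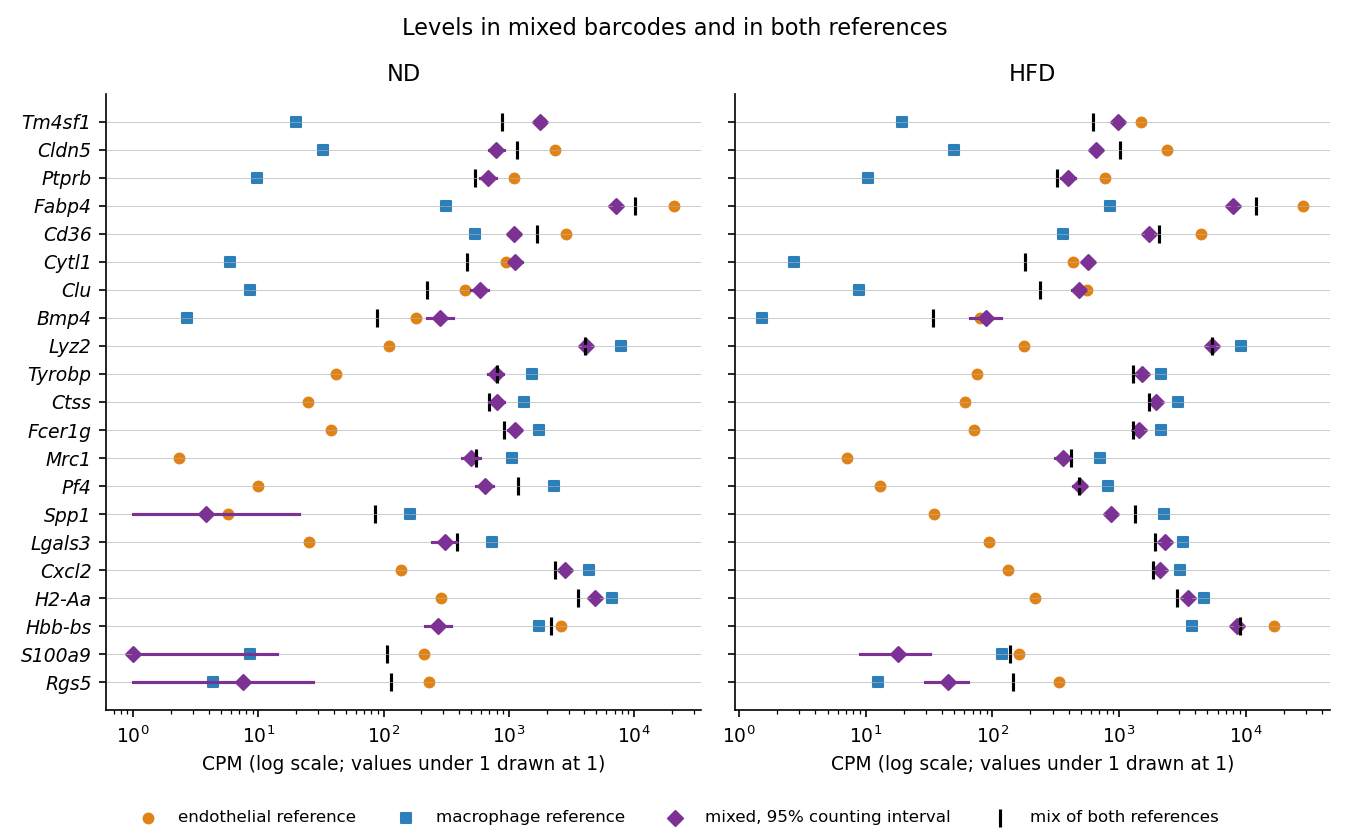
Levels (CPM, log scale) of 21 genes in ND (left) and HFD (right) barcodes: the endothelial reference (orange circles), the macrophage reference (blue squares), the mixed barcodes (purple diamonds with 95% counting intervals) and the mix of both references (black bars). Lyz2, at 4121 CPM against a mix of 4091 in ND, lies on the mix, but it is on the list that sets the weights. Of the other macrophage genes, Cxcl2 lies above the mix in both libraries and Pf4 below it in ND. The luminal genes Cytl1, Clu and Bmp4 lie above the mix and the capillary genes Fabp4 and Cd36 below it.

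By 2 gene lists, the mixed barcodes divided into 2 endothelial kinds, and so did the endothelial reference. The luminal list holds genes of the endothelium of large arteries, among them Cytl1, Clu, the elastin gene Eln and the leukocyte adhesion gene Vcam1, and the capillary list holds genes of small vessels that handle lipid, among them Fabp4, Cd36, the lipoprotein lipase gene Lpl and the water channel gene Aqp1. A barcode with at least 10 UMIs of the endothelial list and 10 of these 2 lists together was called luminal type or capillary type by the higher of the 2 sums, a division made after the data had been seen. In ND, 9 of 24 such mixed barcodes were of luminal type and 15 of capillary type. In HFD, 10 of 53 were of luminal and 43 of capillary type. The luminal part was between 25% and 75% in 0 of 24 ND and 2 of 53 HFD barcodes. Nearly every typed mixed barcode thus held 1 kind and little of the other. In the typed endothelial reference the luminal part lay there in 63 of 2336 ND and 31 of 1372 HFD barcodes. The 2 lists were not equal in macrophage RNA. In the macrophage reference the capillary list was at 1547 CPM in ND and 2480 in HFD, and the luminal list at 185 and 165.

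Cytl1 was at 7, 28 and 90 UMIs (lowest, median and highest) in the 9 ND luminal-type barcodes and had 1 UMI in all 15 capillary-type barcodes together. Fabp4, a fatty acid binding protein gene, was at 6, 80 and 315 UMIs in the ND capillary-type barcodes and at 0, 11 and 16 in the luminal-type ones. In HFD, Cytl1 was at 3, 16.5 and 86 UMIs in the 10 luminal-type barcodes, and Fabp4 at 11, 88 and 354 in the 43 capillary-type barcodes against 0, 1.5 and 11. In HFD both types met in Fabp4 at 11 UMIs only, and 1 capillary-type barcode held 32 Cytl1 UMIs. Since these genes made the division, this is its description.

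Pecam1 and Cdh5 were not on either list, but the rule used both and cut them off at 1 UMI, so their counts by type are a description. Pecam1 was at 7, 23 and 68 UMIs in the 9 ND luminal-type barcodes and at 1, 3 and 12 in the 15 capillary-type ones, and at 13, 21 and 55 against 1, 4 and 23 in HFD. Cdh5 went the other way in ND, with 1, 1 and 12 UMIs against 1, 8 and 27, and was at 1, 4 and 25 against 1, 4 and 24 in HFD. More UMIs of Pecam1 than of Cdh5 were found in 9 of 9 ND and 10 of 10 HFD luminal-type barcodes, and in 2 of 15 and 8 of 43 capillary-type barcodes. The endothelial reference had the same order, with 264 of 282 luminal-type and 241 of 2054 capillary-type barcodes in ND, and 118 of 122 and 234 of 1250 in HFD.

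The luminal type made up 37.5% (18.8 to 59.4) of the typed ND mixed barcodes against 12.1% of the typed ND endothelial reference, and 18.9% (9.44 to 32.0) against 8.89% in HFD. Luminal-type reference barcodes were deeper, at medians of 7160.5 UMIs in ND and 8158 in HFD against 3974.5 and 5388 in capillary-type ones. Among barcodes between the quartiles of the mixed barcodes' UMIs, the luminal share was 33.3% (9.92 to 65.1) of 12 ND mixed barcodes against 14.9% (12.1 to 18.0) of the reference, and 18.5% (6.30 to 38.1) of 27 against 14.5% (11.1 to 18.4) in HFD. The intervals of these matched shares overlap in both libraries.

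**Figure D4:**
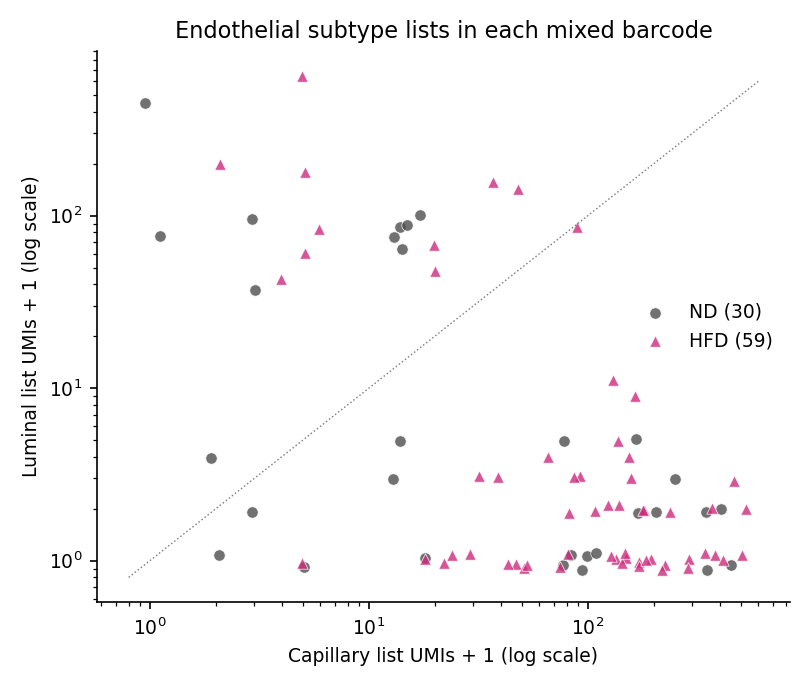
UMIs of the luminal list (vertical, plus 1, log scale) against the capillary list (horizontal, plus 1, log scale) in each of the 30 ND (grey circles) and 59 HFD (pink triangles) mixed barcodes, with points shifted by up to 0.12 UMIs and equal counts on the dotted line. The barcodes lie near the 2 axes, with 0 of 24 ND and 2 of 53 HFD typed barcodes at a luminal part between 25% and 75%.

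Of 2254 genes with at least 20 observed or expected UMIs in each library, 21 (0.932%) were at least 2-fold higher than the mix in both libraries and 5 (0.222%) at least 2-fold lower. The median log2 ratio over all 2254 genes was 0.084 in ND and 0.086 in HFD. Of the 8 luminal genes, 5 were higher, and the list's median was 1.44 in ND and 1.19 in HFD. No gene of the capillary list was at least 2-fold higher or lower, at medians of -0.57 and -0.39. Of the 2 source lists, which set the weights, 0 of 19 tested endothelial and 0 of 19 tested macrophage genes were 2-fold higher or lower.

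Among the genes highest above the mix were Gxylt2, Bmx, Sfrp2, Tmem158, Smoc1, Sod3, Col5a2, Pde3a and Bmp4. Gxylt2, a sugar transferase gene, was at 285 (224 to 357) CPM in ND mixed barcodes against 85.6 in the mix, and at 137 (109 to 169.7) against 39.0 in HFD. Its UMIs came from 9 of 30 ND and 10 of 59 HFD barcodes. Bmx, a kinase gene of arterial endothelium, was at 114 (76.8 to 163) CPM against 33.5 in ND and 52.8 (36.1 to 74.5) against 15.9 in HFD. The log2 ratios of these 9 genes to the mix lay between 1.39 and 1.94 in both libraries.

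When the mix was made separately for the luminal-type and capillary-type barcodes, over the 24 ND and 53 HFD typed barcodes, an alternative added after the values had been seen, the luminal list stood at a log2 ratio of 0.35 instead of 1.45 in ND and 0.20 instead of 1.22 in HFD, and 1 gene was at least 2-fold higher in both libraries instead of 21. With 1 mix over the same typed barcodes, the luminal list was at 1.498 and 1.265 and 21 genes were higher. The capillary list moved from -0.50 to 0.083 in ND and from -0.45 to -0.12 in HFD. Gxylt2 then stood at 0.57 and 0.72 and Bmx at 0.60 and 0.60. Sfrp2, which encodes a secreted Wnt antagonist, kept log2 ratios of 1.68 (1.11 to 2.19) in ND and 1.79 (1.28 to 2.26) in HFD, with its UMIs in 4 of 30 and 4 of 59 barcodes. The luminal and capillary lists made the division by type. Their move towards this mix, and that of genes that go with them, is thus in part built in. What the types account for was not tested.

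The 5 genes at least 2-fold below the mix were S100a9 and S100a8, which encode neutrophil proteins, the growth factor binding gene Igfbp5, the fibroblast gene Pi16 and the pericyte gene Rgs5. Igfbp5 had 1 UMI in ND and 9 in HFD mixed barcodes, at 3.79 CPM against 228 in the mix and at 14.8 against 103. S100a9 had 0 UMIs in 30 ND mixed barcodes, where a count of 3 UMIs over the group puts the log2 ratio at -3.23 or lower, and 11 UMIs in HFD, at 18.1 (9.05 to 32.5) CPM against 137. Rgs5 was at 7.59 (0.919 to 27.4) CPM against 114 in ND and 44.5 (29.3 to 64.8) against 146 in HFD. For the neutrophil genes the mix rests on few reference barcodes, since 1 ND endothelial barcode held 58.1% of the neutrophil list UMIs of its reference and 1 HFD macrophage barcode 61.8%. For the smooth muscle and pericyte list, which holds Rgs5, the highest endothelial reference barcode held 4.74% in ND and 4.46% in HFD.

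T cell and natural killer markers were near 0 in the mixed barcodes, while B cell, erythroid and fibroblast genes were not. The B cell list, led by Ighm and Igkc, was at 296 (234 to 369) CPM in ND against 746 in the mix. In HFD it was at 87.4 (65.5 to 114) CPM against 112. A single barcode held 44 of its 78 UMIs in ND and 17 of 53 in HFD. The T cell list had 3 UMIs over 30 ND and 10 over 59 HFD mixed barcodes, 10 of them Cd4 in HFD, and Cd3d and Cd3e were at 0 in both libraries. The natural killer list had 0 and 1 UMIs and the lymphatic endothelial list 8 and 12. The smooth muscle and pericyte list was at 159 (115 to 215) CPM in ND and 89.0 (66.9 to 116) in HFD, against 252 and 263 in the mix. Its level was 494 and 602 CPM in the endothelial reference and 24.2 and 23.1 in the macrophage reference. The fibroblast list was at 516 (433 to 610) CPM in ND against 1294 in the mix and at 819 (749 to 895) in HFD against 783, and at least 10 of its UMIs were found in 3 ND and 4 HFD mixed barcodes, with 51 of 136 and 149 of 497 UMIs in 1 barcode. The erythroid list was at 508.5 (426 to 602) CPM in ND against 3799.8 in the mix and at 15813 (15498 to 16132) in HFD against 16179. The part of other cell types' RNA in the results was not tested.

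Adhesion genes of endothelium and of leukocytes were both present. This follows in part from the rule, which chose barcodes with genes of both cell types. Of the adhesion genes of endothelium, Vcam1, the ligand of leukocyte integrins, was at 349 (281 to 428) CPM in ND and 355 (309 to 405) in HFD mixed barcodes, against 157 and 140 in the mix, and Icam1 at 326 (261 to 403) and 189.6 (157 to 228) against 260 and 158. Selp, which encodes the P-selectin on which leukocytes roll, was at 72.1 (43.4 to 113) CPM in ND and 125 (98.7 to 157) in HFD against 21.8 and 27.5, and its 19 and 76 UMIs came from 7 and 9 barcodes, 35 of the HFD ones from 1. Of the leukocyte side, the integrin genes Itgam and Itgb2 were at 98.7 (64.5 to 145) and 64.5 (37.6 to 103) CPM in ND against 99.2 and 94.9 in the mix, and at 139 (110.5 to 171) and 130.3 (103 to 162) against 104 and 130.3 in HFD. Of the 5 tested genes on the endothelial side, 1 was at least 2-fold above the mix in both libraries, beside the 0.932% of all genes. Of the 5 on the leukocyte side none was. The 1 gene was Vcam1, which is also on the luminal list. With a mix for each endothelial type, Vcam1 was at a log2 ratio of 0.30 (-0.019 to 0.60) in ND and 0.74 (0.54 to 0.94) in HFD.

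The receptors and ligands of myeloid cells were set against the mix in the same way. Csf1r, the receptor that macrophages need to survive, was at 379 (309 to 462) CPM in ND and 302 (259.6 to 349) in HFD mixed barcodes against 453.5 and 279.7 in the mix, and was found in 22 of 30 and 52 of 59 barcodes. The monocyte chemokine gene Ccl2 was at 436 (360.3 to 524) CPM against 475 in ND and at 397 (349 to 451) against 239.5 in HFD. Cxcl12, a chemokine gene with 448 CPM in the ND endothelial and 28.0 CPM in the ND macrophage reference, was at 182 (134 to 241.5) against 232 in ND and at 359 (313 to 410.5) against 391 in HFD. None of the 5 tested ligands and 6 tested receptors was 2-fold above or below the mix in both libraries, beside 0.932% of all genes above and 0.222% below. With so few genes tested, this is not a result about these lists.

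The list of genes for the uptake of dying cells also followed the mix, at log2 ratios of -0.12 in ND and -0.018 in HFD. Stab1, a scavenger receptor gene, was at 455 (378 to 545) CPM against 456 in ND and 247 (209 to 290.2) against 262 in HFD. Lrp1, an endocytic receptor gene, was at 114 (76.8 to 163) against 164 in ND and at 297 (255 to 343) against 249 in HFD. Genes of the endothelial to mesenchymal list were at a log2 ratio of 0.42 in ND and 0.45 in HFD, with the fibronectin gene Fn1 at 990.4 (874 to 1118) CPM against 360.2 in ND and at 546 (489 to 608) against 313 in HFD. Of the 261 Fn1 UMIs of ND, 134 came from 1 barcode. The antigen presentation genes Cd74, H2-Aa, H2-Eb1 and H2-Ab1 were at log2 ratios between 0.45 and 0.66 in ND and between 0.18 and 0.28 in HFD.

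Between the diets, the largest differences in mixed barcodes lay in genes of lipid-laden macrophages and of erythrocytes. Of 1218 genes with at least 100 UMIs over both libraries and at least 4 in each, 51 (4.19%) were at least 2-fold higher in HFD and 33 (2.71%) at least 2-fold lower. With scaling by the median of ratios, under which the median of all genes was 0.15 instead of -0.054, these numbers were 79 and 13. Of the 7 tested genes of the foam macrophage list, 6 were at least 2-fold higher in HFD, with a list median of 1.96. Of the 8 tested resident macrophage genes, 0 were 2-fold higher or lower, with a median of -0.37.

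Lgals3, which encodes the macrophage lectin galectin-3, was at 307 (244 to 382) CPM in ND and 2329.9 (2209.9 to 2455) CPM in HFD mixed barcodes, a log2 difference of 2.92 (2.60 to 3.26). Trem2, a lipid-sensing receptor gene of foam cells, was at 83.5 (52.3 to 126) and 427 (377 to 482) CPM, a log2 difference of 2.35 (1.73 to 3.05). Mmp12, the macrophage elastase gene, differed by 2.14 (1.64 to 2.69), Ctsd, a lysosomal protease gene, by 1.96 (1.72 to 2.21), Lpl, of the capillary list, by 1.96 (1.64 to 2.29) and Fabp5, a fatty acid binding protein gene, by 1.79 (1.52 to 2.07). Spp1, the osteopontin gene, had 1 UMI in ND and 528 UMIs in HFD mixed barcodes, at 3.79 (0.0961 to 21.1) and 871 (798 to 948) CPM, a log2 difference of 7.84 (5.36 to 13.15). In the macrophage reference the same difference was 2.12 for Lgals3, 1.77 for Trem2, 0.87 for Mmp12, 1.85 for Ctsd, 1.06 for Lpl 3.09 for Fabp5 and 3.80 for Spp1. The mixes of the 2 libraries, in which the change of the references and of the macrophage part is included, differed by 2.29 for Lgals3, 1.98 for Trem2, 1.06 for Mmp12, 1.87 for Ctsd, 0.93 for Lpl, 2.25 for Fabp5 and 3.96 for Spp1.

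These foam genes were held by few barcodes. The foam list took at least 1% of the UMIs of 11 of 59 HFD mixed barcodes (18.6%) and of 1 of 30 ND mixed barcodes, beside 136 of 472 HFD and 8 of 364 ND barcodes of the macrophage reference, a limit set after the data had been seen. The 11 HFD barcodes held 522 of the 528 Spp1 UMIs, 223 of the 259 Trem2 UMIs and 1145 of the 1413 Lgals3 UMIs. They had 0 UMIs of the resident macrophage gene F13a1, 8 of the mannose receptor gene Mrc1 and 10 of the chemokine gene Pf4. The other 48 HFD mixed barcodes had 243 UMIs of F13a1, 210 of Mrc1, 287 of Pf4 and 6 of Spp1. The foam list chose the 11 barcodes, so their large share of its UMIs is in part built in.

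In the 11 barcodes, Trem2 was at 1284 (1121 to 1464) CPM, against 1185 (1128 to 1244) in the 136 foam-rich barcodes of the HFD macrophage reference, and Lgals3 at 6591 (6215 to 6984) against 6580 (6445 to 6716). Spp1 was lower, at 3005 (2752 to 3274) against 5260 (5140 to 5383), and Fabp5 at 4582 (4269 to 4912) against 7487 (7344 to 7633). Trem2, Lgals3, Spp1 and Fabp5 are on the foam list, which chose the barcodes of both groups. Similar levels are thus in part built in, and the values are a description. Of the 11, 10 were among the 43 capillary-type barcodes and 1 among the 10 luminal-type ones. The macrophage part of the 11 lay between 46.8% and 92.5%. In the HFD macrophage reference the capillary list was at 2480 CPM and the luminal list at 165. What macrophage RNA adds to the division by type was not tested. Without the barcodes rich in the foam list, the log2 difference of the whole list between the diets was 0.68 instead of 2.29, that of Mmp12 was -1.16 instead of 2.14, and that of the resident list 0.024 instead of -0.37. The same list chose the barcodes left out, so the fall of the list and of its gene Mmp12 is in part built in.

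**Figure D5:**
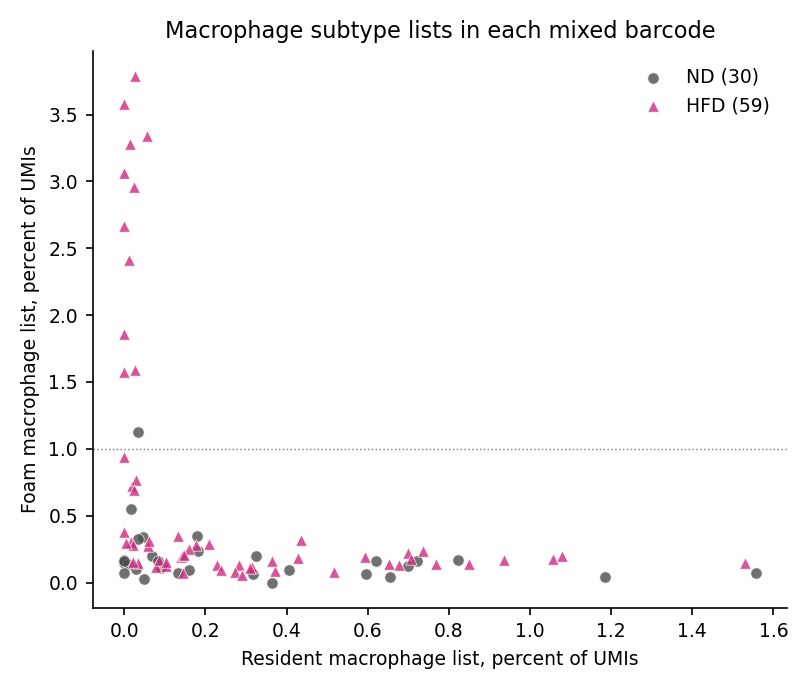
Percent of UMIs taken by the foam macrophage list (vertical) and by the resident macrophage list (horizontal) in each of the 30 ND (grey circles) and 59 HFD (pink triangles) mixed barcodes, with the dotted line at 1%. The 11 HFD barcodes and 1 ND barcode above the line lie close to 0 on the resident list.

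Among the 1218 genes, the 4 largest differences were those of haemoglobin genes: Hba-a2, Hba-a1, Hbb-bs and Hbb-bt were higher in HFD mixed barcodes by 5.19, 5.08, 4.96 and 4.38 log2 units. The erythroid list took at least 1% of the UMIs of 7 of 59 HFD mixed barcodes, which held 98.1% of its 9590 UMIs, and of 0 of 30 ND mixed barcodes, beside 179 of 1388 HFD and 40 of 2375 ND barcodes of the endothelial reference. Without these 7 barcodes, the list stood at 337 CPM instead of 15813, and the 4 genes stood at log2 differences of -0.50, -0.44, -0.58 and -1.01. In ND, 117 of the 134 UMIs of the list came from 1 barcode, where they were 0.653% of its UMIs. With a limit of 0.5% this barcode was left out too, the list stood at 69.2 CPM in ND and 337 CPM in HFD, and the 4 genes were higher in HFD by 3.64, 2.10, 2.17 and 2.06 log2 units, so 1 ND barcode decides the direction. The HFD endothelial reference had the list at 29423 CPM and the macrophage reference at 6850 CPM.

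The largest differences in the other direction were Edn1, Cyr61, C3, Iigp1, Bmp4, Bmp6, Ccl3, Hspa1b, Cxcl10 and H2-Q6. Edn1, the endothelin gene, was at 474 (395 to 565) CPM in ND and 87.4 (65.5 to 114) CPM in HFD, a log2 difference of -2.44 (-2.93 to -1.97), and its UMIs came from 9 ND and 6 HFD barcodes. Cyr61, a matrix protein gene, was at 709.6 (612 to 819) and 132 (105 to 164) CPM and was found in 17 of 30 and 34 of 59 barcodes. C3, the central complement gene, differed by -2.14 (-2.67 to -1.64), but 91 of its 96 ND UMIs came from 1 barcode. The chemokine genes Ccl3 and Cxcl10 differed by -1.42 (-1.90 to -0.95) and -1.40 (-1.95 to -0.85). Of the 8 tested luminal genes, 2 were at least 2-fold lower in HFD, Edn1 and Bmp4, beside the 2.71% of all tested genes and the 37.5% and 18.9% of typed barcodes that were of luminal type in ND and HFD.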

How the data were processed

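Single cells of the aortic arch were measured by droplet RNA sequencing in 1 library per diet. The authors deposited raw UMI counts, 1 for each of 31053 genes and each barcode, made with Cell Ranger 3.0.1 per the file headers and not normalized, for each library and for both joined. The joined counts differed from the single libraries in 0 entries and were not used further. The submitters' processing notes name mm10, UMI-tools, bcl2fastq, R 4.0.0 and Seurat 3.2.0, and which annotation the counts used is not stated there.

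Barcodes with fewer than 200 genes, fewer than 200 UMIs or over 30% of UMIs from mitochondrial genes were left out. The kept barcodes held 27137322 UMIs in ND, with 640 to 61331 per barcode, and 17191279 in HFD, with 1176 to 61381. Of all barcode sequences, 39 were in both libraries, and 1 HFD and 0 ND mixed barcodes carried one of them. UMIs were summed over barcodes and divided by all UMIs as CPM. Intervals are Poisson for CPM, Clopper-Pearson for shares, conditional binomial for ratios and from order statistics for medians. Where a sum was 0, a ratio is a bound with 3 UMIs over the group. With 1 library per diet no test was made. Doublet scores came from Scrublet in scanpy 1.11.5 and removed nothing. The scripts ran on Python 3.11.15 with pandas 2.3.3, scipy 1.17.1 and numpy 2.4.6 and were tested on simulated data. Gene positions are from GENCODE M21.

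The members and the 36 gene lists were chosen with earlier results of these data known. The division by endothelial type, the limits for foam-rich and erythroid-rich barcodes, depth matching and the gates of other cell types were set after the data had been seen. Genes were named from those of the rule and its markers, the 4 genes of each list with the most UMIs in mixed barcodes, the 10 highest above and the 10 lowest below the mix in both libraries (of the latter, those at least 2-fold lower), the 10 largest differences between diets in each direction, Cxcl2 and Tyrobp, and 1 gene of these is not reported here. Alternatives changed the C1q limit, the UMI minimum, the mitochondrial limit, doublets, shared barcodes, the references, the weights, the scaling and the filter.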

Additional observations from a re-analysis of the deposited data

Results flagged for a closer look

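Barcodes above the mitochondrial limit were outside every comparison. In HFD, 8 of 7215 barcodes with enough genes and UMIs but over 30% mitochondrial UMIs (0.111%) met the rest of the rule, beside 1 of 2299 (0.0435%) in ND. They are listed because they lay outside every comparison, and what they hold was not tested.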

How the results depend on the processing

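No paired analysis was possible because each diet had 1 library, and for the same reason no replicate could be left out. The share of mixed barcodes was 0.314% in ND and 1.42% in HFD with a C1q limit of 0.5%, 0.0739% and 0.475% with 1%, 0.258% and 1.42% with at least 2 UMIs of Pecam1 and of Cdh5, 0.277% and 1.14% without the highest 6% of doublet scores, and 0.262% and 0.475% after thinning. With a mitochondrial limit of 20% it was 4.01% in HFD. The median UMIs of ND mixed barcodes were 4292.5 at the 1% limit and 5756.5 without the highest doublet scores. The macrophage part in ND and HFD was 44.6% and 54.1% at a C1q limit of 0.1%, 59.6% and 69.95% at 0.5%, 97.0% and 73.9% at 1%, 43.6% and 52.5% with at least 2 UMIs, 48.5% and 57.1% at the mitochondrial limit of 20%, 70.6% and 76.2% without the highest doublet scores, 55.5% and 60.1% with each barcode of equal weight, 55.5% and 62.6% by least squares over all genes, and 47.6% in ND with at least 10 UMIs of both lists.

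Per UMI of the own source list, the luminal list was at a log2 ratio to its reference of 1.55 with equal weights and 1.61 without its top gene in ND, and 1.30 without its top gene in HFD. The foam list was at 0.61 with equal weights in ND, and at -0.24 with strict references, -0.083 with equal weights and -0.21 without its top gene in HFD, where the resident list was at -0.27 without its top gene. Against the mix, the luminal list was at 1.56 and 1.35 by least squares, 1.55 in ND with at least 10 UMIs of both lists, and 0.35 and 0.20 with a mix for each endothelial type, where 1 gene was higher and the capillary list was at 0.083 in ND. The luminal and capillary lists made the division by type, so their values under it are in part built in.

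Between diets, 79 genes were higher and 13 lower with the median of ratios, 25 and 14 without foam-rich barcodes, and 216 and 770 of 7008 with no minimum beyond 4 UMIs in each library. The foam list was at 2.49 with the median of ratios, 2.90 at the C1q limit of 0.5%, 2.45 without erythroid-rich barcodes at either limit and 0.68 without foam-rich barcodes, and the resident list at -0.17, -0.67, -0.69 (-0.68 with the limit of 0.5%) and 0.024. Without erythroid-rich barcodes, Hba-a2, Hba-a1, Hbb-bs and Hbb-bt were at -0.50, -0.44, -0.58 and -1.01, but at 3.64, 2.10, 2.17 and 2.06 with a limit of 0.5%, which also left out the 1 ND barcode with 117 of 134 erythroid UMIs, and without foam-rich barcodes Mmp12 was at -1.16. Where fewer barcodes were left, this follows from the alternative itself, and otherwise the cause was not tested. For named genes, 195 of 225 values against the mix and 120 of 152 between diets stayed within the counting interval of the main value. With 30 and 59 barcodes and 1 library per diet, the depth limits genes with few UMIs, and the spread between mice is unknown. The mix for each type and the alternatives without foam-rich or erythroid-rich barcodes or with 10 UMIs of both lists, and 1 mix over typed barcodes, were chosen after seeing the data.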
